A study of Mus musculus with 6 samples.

Results

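The BCL-2 family decides whether a cell enters mitochondrial apoptosis. Mcl1 and Bcl2l1 encode the survival proteins MCL-1 and BCL-XL, which hold the outer mitochondrial membrane intact, while Bcl2l11 encodes BIM, a BH3-only protein that binds and blocks such survival proteins and so favours death. In haematopoietic cells growth-factor receptors and their kinases are known to raise the survival side and to hold BIM down. BIM is held down in part by keeping FOXO transcription factors out of the nucleus. The libraries below read RNA only, and neither the proteins nor cell survival was measured in them.

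The start sites of these 3 genes were followed in Ba/F3 cells, a mouse pro-B line in which the survival function of an introduced kinase can be studied. The cells carried FLT3-ITD/D835Y (n = 3) or FLT3-ITD alone (n = 3), so every library came from cells with an internal tandem duplication of the FLT3 receptor kinase. By label the groups differed by D835Y, a substitution in the activation loop known for weakening the response to some FLT3 inhibitors. Any other difference between the cells of the groups cannot be told apart from D835Y. The groups follow the sample titles, since a second label changes the residue number from sample to sample in the FLT3-ITD/D835Y group. The growth medium held serum, and the labels name no cytokine, no drug, and neither the number of clones nor separate cultures, and the p-values below speak only of how far these libraries scatter, part of which may be technical. Capped 5′ ends of RNA were sequenced by cap analysis of gene expression (CAGE), in which a peak of tags marks a start site. Tags are taken from the 5′ end only, so their number does not grow with the length of the RNA. Levels of different genes are set side by side below on that basis. Whether all starts are captured and sequenced equally well was not tested.

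The deposited peaks carry no gene names, and each gene was taken as the peaks of its strand in a window on the mouse build mm9. Mcl1 had 22 peaks on the plus strand of chromosome 3 between 95455000 and 95470000, Bcl2l1 had 18 on the minus strand of chromosome 2 between 152600000 and 152660000, and Bcl2l11 had 9 on the plus strand of chromosome 2 between 127945000 and 127990000. Together these were 49 of the 158966 peaks. Of the 49, 37 held a tag in some library and 11 reached 1 CPM (tags scaled to a library total of 1000000) in at least 3 libraries, the minimum for a test of a single site: 4 of Mcl1, 5 of Bcl2l1 and 2 of Bcl2l11. The other 38 stayed at or below 1.43 CPM in every library, 12 of them without a tag, where 0 tags allow a level of up to 0.215 to 0.51 CPM in a library, depending on its depth. Libraries held 10114212 to 13977941 tags in the FLT3-ITD/D835Y group and 5884258 to 11397865 in the FLT3-ITD group. The pro-B identity of the cells and other BCL-2 family genes were not analysed here, because no annotation of the files' build was used.

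RefSeq sequences of the promoters were matched by symbol for all 3 genes and follow the GRCm38.p6 build of the C57BL/6J strain, so their coordinates are not those of the peaks, and Ba/F3 cells are labelled as BALB/c. The 2 RefSeq starts of Bcl2l11 lie 1537 bases apart, and the 5′ ends of its 2 tested peaks lie 1557 bases apart. Both are shown because both sites rose, as described below. Coordinates were not converted, so whether a window covers the main peak of its gene was not tested. Windows of Mcl1 and Bcl2l1 are shown for comparison, since the main starts of these genes did not rise. Each runs 5′ to 3′ on the gene's strand, and capitals mark matches on either strand to the FOXO core GTAAACA, the STAT palindrome TTCNNNGAA, the CCAAT box spelled CCAAT, the TATA box spelled TATAAA and the GC box spelled GGGCGG. No match overlapped another.
Bcl2l11 upstream start, chr2:128125788-128126087, plus strand: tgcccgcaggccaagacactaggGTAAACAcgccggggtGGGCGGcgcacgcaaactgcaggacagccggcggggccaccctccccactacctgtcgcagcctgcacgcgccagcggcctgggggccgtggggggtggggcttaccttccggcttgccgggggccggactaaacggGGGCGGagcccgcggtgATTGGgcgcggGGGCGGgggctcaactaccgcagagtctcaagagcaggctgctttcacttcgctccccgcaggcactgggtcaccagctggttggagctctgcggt
Bcl2l11 downstream start, chr2:128127325-128127624, plus strand: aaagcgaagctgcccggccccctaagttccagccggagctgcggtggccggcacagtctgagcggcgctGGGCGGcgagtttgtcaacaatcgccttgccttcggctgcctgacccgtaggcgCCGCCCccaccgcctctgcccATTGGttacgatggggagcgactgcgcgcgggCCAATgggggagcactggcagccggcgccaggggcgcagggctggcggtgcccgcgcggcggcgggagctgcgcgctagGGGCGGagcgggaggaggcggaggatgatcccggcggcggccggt
Mcl1, chr3:95658471-95658770, plus strand: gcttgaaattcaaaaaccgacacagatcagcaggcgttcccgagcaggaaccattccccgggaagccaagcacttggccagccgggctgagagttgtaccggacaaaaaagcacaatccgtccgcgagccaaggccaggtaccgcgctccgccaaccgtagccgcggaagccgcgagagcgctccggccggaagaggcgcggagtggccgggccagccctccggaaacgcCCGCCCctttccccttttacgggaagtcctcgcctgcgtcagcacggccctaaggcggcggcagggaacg
Bcl2l1, chr2:152830668-152830967, minus strand: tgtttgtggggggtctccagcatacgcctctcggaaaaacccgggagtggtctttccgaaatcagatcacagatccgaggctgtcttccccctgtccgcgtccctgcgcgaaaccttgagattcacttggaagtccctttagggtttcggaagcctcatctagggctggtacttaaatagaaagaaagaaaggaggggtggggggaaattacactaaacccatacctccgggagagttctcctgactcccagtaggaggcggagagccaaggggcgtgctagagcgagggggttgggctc

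The upstream Bcl2l11 window held 1 FOXO core, with its first base at position -227 from the RefSeq start, a match found in 3.65% of 32851 RefSeq promoters of this length. It also held 3 GC boxes and 1 CCAAT box. The downstream window held 3 GC boxes and 2 CCAAT boxes, and no FOXO core. The Mcl1 window held 1 GC box, and the Bcl2l1 window shown held no match to any of the 5. GC boxes were found in 35.7% and CCAAT boxes in 37.4% of RefSeq promoters, STAT palindromes in 8.3% and TATA boxes in 13.6%. GC content was 71% and 74% in the upstream and downstream Bcl2l11 windows, 65.7% in the Mcl1 window and 55.7% in the Bcl2l1 window, against a median of 52.7%. The Bcl2l1 window belongs to the second of 3 RefSeq starts, which lies 1011 bases below the first. A peak whose 5′ end lies 1007 bases below the most upstream tested Bcl2l1 peak stayed under the minimum, and the main Bcl2l1 peak lies 1055 bases below it. These matches are letters in a window and say nothing of whether a factor was bound.

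Bcl2l11, the gene of the pro-death protein BIM, rose in FLT3-ITD/D835Y cells. Bcl2l1 fell, and for Mcl1 no difference was detected. The levels of the 9 Bcl2l11 peaks summed to 25.7, 30.9 and 22.7 CPM in the FLT3-ITD/D835Y libraries, against 11.7, 10.0 and 9.30 CPM in the FLT3-ITD libraries. The lowest FLT3-ITD/D835Y library stood above the highest FLT3-ITD library. The means were 26.4 ± 4.1 and 10.3 ± 1.2 CPM (SD, n = 3 each), a ratio of 2.56. On the log2(CPM + 1) scale, which understates changes of low sites, the difference was 1.27 (SE 0.15, 95% interval 0.95 to 1.59), with limma's adjusted p = 6.7e-05. In counts of tags these sums rested on 968 pooled tags in FLT3-ITD/D835Y cells and 285 in FLT3-ITD cells. In bulk libraries, more RNA per cell and more cells of a kind that makes it cannot be told apart.

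Bcl2l1 summed to 24.7, 26.6 and 26.6 CPM in the FLT3-ITD/D835Y libraries, against 33.7, 34.0 and 39.5 CPM in the FLT3-ITD libraries. Every FLT3-ITD/D835Y library lay below every FLT3-ITD library. The means were 26.0 ± 1.1 and 35.7 ± 3.2 CPM (SD, n = 3 each), a ratio of 0.726 and a log2 difference of -0.44 (SE 0.12, 95% interval -0.70 to -0.19, limma adjusted p = 0.017). This call rested on single libraries: the adjusted p was 0.063 without FLT3-ITD/D835Y replicate 1 and 0.090 without FLT3-ITD replicate 3, with differences of -0.41 and -0.37. CAGE reads the start of the RNA and cannot separate the long and short splice forms of Bcl2l1, which have opposite effects on survival, nor the splice forms of Bcl2l11.

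Mcl1 had the highest tag level of the 3 genes. Its level summed over 22 peaks was above that of 92.9% of the tested promoters, which were single peaks and not sums. Mcl1 summed to 97.6, 100.4 and 96.9 CPM in the FLT3-ITD/D835Y libraries, against 92.3, 107.9 and 110.6 CPM in the FLT3-ITD libraries. The groups overlapped, since the lowest value was that of FLT3-ITD replicate 1. The log2 difference was -0.07 (SE 0.11, limma adjusted p = 0.67), and its 95% interval of -0.31 to 0.16 corresponds to a level of CPM + 1 in FLT3-ITD/D835Y cells between 0.809 and 1.12 times that in FLT3-ITD cells.

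**Figure D1:**
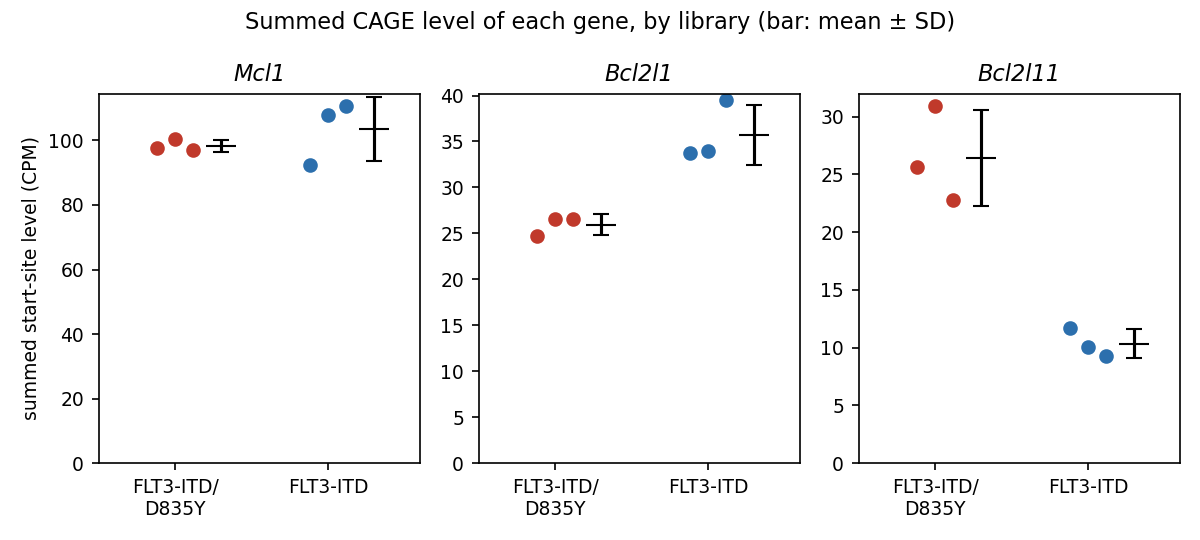
Summed CPM of the peaks of Mcl1, Bcl2l1 and Bcl2l11 in each library (points), with mean ± SD beside them, FLT3-ITD/D835Y left of FLT3-ITD. The groups do not overlap for Bcl2l11, which averaged 26.4 CPM in FLT3-ITD/D835Y and 10.3 CPM in FLT3-ITD, or for Bcl2l1, which averaged 26.0 CPM in FLT3-ITD/D835Y and 35.7 CPM in FLT3-ITD, and they overlap for Mcl1.

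The order of levels differed between the groups. In FLT3-ITD/D835Y cells Mcl1 was highest, while Bcl2l11 (22.7 to 30.9 CPM) and Bcl2l1 (24.7 to 26.6 CPM) overlapped and had no order beyond their spread. In FLT3-ITD cells Mcl1 stood above Bcl2l1 and Bcl2l1 above Bcl2l11 with no overlap. Ratios taken within a library do not depend on how libraries are scaled. There were 0.961, 0.861 and 1.17 Bcl2l1 tags for each Bcl2l11 tag in the FLT3-ITD/D835Y libraries, against 2.88, 3.39 and 4.25 in the FLT3-ITD libraries. There were 3.80, 3.25 and 4.26 Mcl1 tags for each Bcl2l11 tag in the FLT3-ITD/D835Y libraries, against 7.89, 10.8 and 11.9 in the FLT3-ITD libraries. Both ratios were lower in all FLT3-ITD/D835Y libraries than in any FLT3-ITD library, with log2 differences of -1.81 and -1.42. The ratio of Mcl1 to Bcl2l1 was 3.79 ± 0.16 in FLT3-ITD/D835Y cells and 2.91 ± 0.24 in FLT3-ITD cells (SD, n = 3 each), again without overlap. Each of these 3 ratios had a two-sided exact permutation p of 0.10, the smallest that 3 libraries against 3 can give, and 0.15 after Benjamini-Hochberg adjustment over 6 shares and ratios. All 3 are built from the gene sums given above, so they restate those sums and are not separate results.

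Set among all promoters, change of this kind was common. Of 19162 single promoters tested, 24.4% changed (limma, adjusted p under 0.05): 14.1% of the 19162 were higher and 10.4% lower in FLT3-ITD/D835Y cells. Which side held more calls depended on scaling: 2695 were higher and 1985 lower as deposited, 2451 and 2456 with TMM scaling, and 1702 and 1836 with DESeq2. With gene sums in place of the members' peaks, 24.4% of 19154 values changed, and the groups did not overlap at 41.8%, with 24.2% higher and 17.6% lower in FLT3-ITD/D835Y cells. The rise of Bcl2l11 was exceeded by 354 of the other values (1.85%). A larger fall than that of Bcl2l1 was seen in 13.2%. The median difference of all tested promoters was 0.05, with 5th and 95th percentiles of -0.76 and 0.84.

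**Figure D2:**
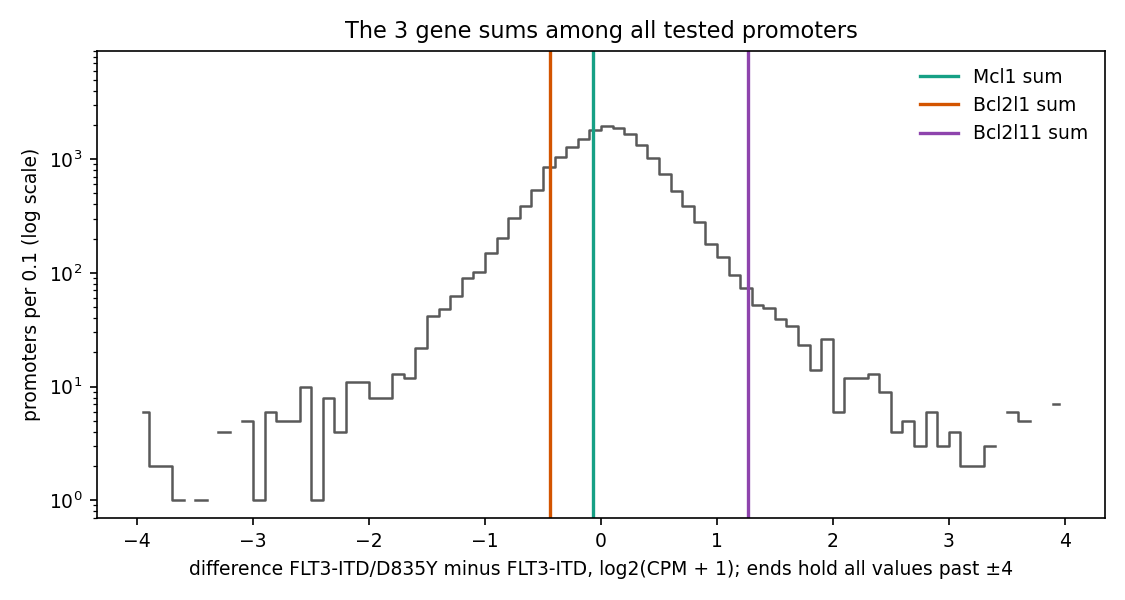
Number of tested promoters (log scale) by their log2(CPM + 1) difference, FLT3-ITD/D835Y minus FLT3-ITD, in steps of 0.1, with vertical lines at the sums of the 3 genes. Mcl1 (-0.07) lies near the middle, Bcl2l1 (-0.44) on the left flank and Bcl2l11 (1.27) in the right tail.

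Single start sites were also read separately. A call at a site with no call at its neighbour does not show that the sites differ. Of the 11 tested, 2 rose and 2 fell in FLT3-ITD/D835Y cells, where 14.1% of all tested promoters rose and 10.4% fell. Both that rose belonged to Bcl2l11, 1 that fell to Bcl2l1 and 1 to Mcl1. The median difference over the 11 was -0.02, and the range -1.01 to 1.30.

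Bcl2l11 had a main start at 127951766 to 127951792 and a second, weaker start downstream at 127953323 to 127953379. The main start held 22.2, 27.2 and 19.7 CPM in the FLT3-ITD/D835Y libraries, against 10.1, 7.82 and 8.16 CPM in the FLT3-ITD libraries. The groups were far apart, with a log2 difference of 1.30 (SE 0.16, limma adjusted p = 7.9e-05). The second start held 3.19, 3.15 and 2.77 CPM in the FLT3-ITD/D835Y libraries, against 1.56, 2.04 and 1.05 CPM in the FLT3-ITD libraries. These groups did not overlap either, with a log2 difference of 0.68 (SE 0.20, limma adjusted p = 0.023). The second call was lost without FLT3-ITD/D835Y replicate 1 (adjusted p = 0.070), without FLT3-ITD replicate 1 (0.055) and without FLT3-ITD replicate 3 (0.10), and DESeq2 gave 0.11. It rested on 110 pooled tags in FLT3-ITD/D835Y cells and 40 in FLT3-ITD cells. The main start made up 87.0 ± 0.81% of Bcl2l11 tags in FLT3-ITD/D835Y cells and 84.1 ± 5.4% in FLT3-ITD cells (SD, n = 3 each, two-sided exact permutation p = 0.60). With 3 libraries against 3 that test cannot give a p below 0.10, so it could not call a shift between the starts. The other 7 peaks of the window summed to at most 0.572 CPM in a library.

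The 5 tested starts of Bcl2l1 lay within 1318 bases. The main one, at 152656351 to 152656416, held 12.2, 11.6 and 12.6 CPM in the FLT3-ITD/D835Y libraries, against 15.2, 16.5 and 19.5 CPM in the FLT3-ITD libraries. It was lower in all FLT3-ITD/D835Y libraries, with a log2 difference of -0.45 (SE 0.14, limma adjusted p = 0.031). That adjusted p was 0.072 without FLT3-ITD/D835Y replicate 1, 0.059 without FLT3-ITD/D835Y replicate 3, 0.072 without FLT3-ITD replicate 2, 0.14 without FLT3-ITD replicate 3 and 0.076 with no minimum level. The remaining 4 did not pass. A start 94 bases further down held 4.95 ± 0.34 CPM in FLT3-ITD/D835Y cells and 7.04 ± 1.8 CPM in FLT3-ITD cells (log2 difference -0.41, 95% interval -0.81 to -0.02, limma adjusted p = 0.12). Its groups did not overlap, as at 41.8% of all tested promoters. The highest FLT3-ITD/D835Y library had 5.29 CPM and the lowest FLT3-ITD library, replicate 2, had 5.44 CPM. That gap was smaller than the 0.17 CPM of 1 tag in FLT3-ITD replicate 2. With edgeR the site fell just under the threshold (adjusted p = 0.050). The start at 152656979 to 152657062, upstream of the main one, held 2.43, 2.50 and 3.56 CPM in the FLT3-ITD/D835Y libraries, against 3.32, 5.95 and 5.53 CPM in the FLT3-ITD libraries. The groups overlapped by a narrow margin and the log2 difference was -0.61 (SE 0.21, limma adjusted p = 0.054). This site fell under the threshold with TMM scaling (0.043), RLE scaling (0.041), edgeR (0.042), no minimum level (0.044) and without FLT3-ITD/D835Y replicate 3 (0.046) or FLT3-ITD replicate 1 (0.018). The most upstream start, at 152657401 to 152657471, held 3.14 ± 0.87 CPM in FLT3-ITD/D835Y cells and 4.01 ± 1.3 CPM in FLT3-ITD cells (log2 difference -0.26, limma adjusted p = 0.42). The weakest, at 152656146 to 152656153, held 0.986 ± 0.14 CPM in FLT3-ITD/D835Y cells and 0.931 ± 0.59 CPM in FLT3-ITD cells (limma adjusted p = 0.82). The main start made up 46.8 ± 3.1% of Bcl2l1 tags in FLT3-ITD/D835Y cells and 47.6 ± 2.3% in FLT3-ITD cells (SD, n = 3 each, two-sided exact permutation p = 0.70). Here too the smallest possible p was 0.10, so the test could not call a shift between starts.

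**Figure D3:**
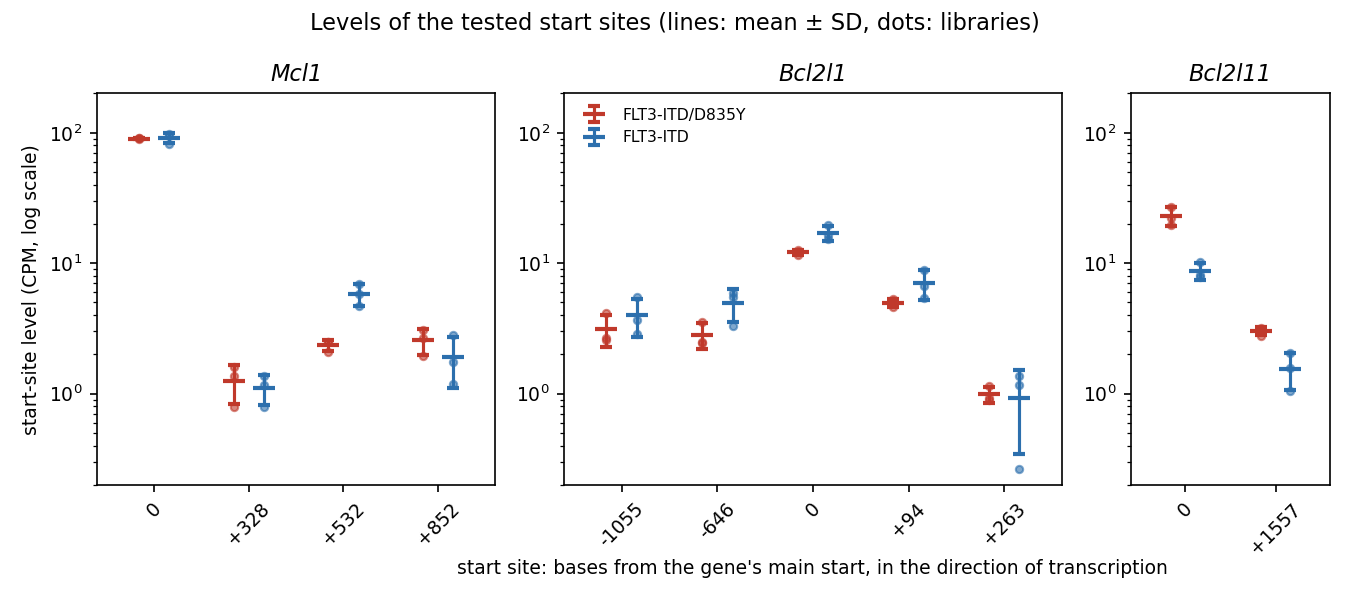
Level in CPM (log axis) of each tested start site by its distance in bases from the main start of its gene, with mean ± SD (lines) and libraries (dots), FLT3-ITD/D835Y left of FLT3-ITD. Both Bcl2l11 starts are higher in FLT3-ITD/D835Y, and the Mcl1 start at +532 is lower, at 2.36 CPM in FLT3-ITD/D835Y and 5.80 CPM in FLT3-ITD, while the values of the Mcl1 main start overlap.

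Mcl1 was read almost wholly from a single narrow start at 95462693 to 95462709. This site held 90.5, 91.0 and 89.3 CPM in the FLT3-ITD/D835Y libraries, against 82.1, 96.5 and 97.1 CPM in the FLT3-ITD libraries. The FLT3-ITD/D835Y values lay inside the range of the FLT3-ITD values (log2 difference -0.02, 95% interval -0.26 to 0.21, limma adjusted p = 0.91). A weak start 532 bases downstream, at 95463225 to 95463243, fell. It held 2.10, 2.50 and 2.47 CPM in the FLT3-ITD/D835Y libraries, against 4.68, 5.78 and 6.93 CPM in the FLT3-ITD libraries. All FLT3-ITD/D835Y libraries were below all FLT3-ITD libraries, with a log2 difference of -1.01 (SE 0.18, 95% interval -1.40 to -0.61, limma adjusted p = 0.0016), and the site passed in all 13 alternatives that could test it. It accounted for 2.40 ± 0.22% of Mcl1 tags in FLT3-ITD/D835Y cells and 5.56 ± 0.62% in FLT3-ITD cells (SD, n = 3 each). This share had a two-sided exact permutation p of 0.10, the smallest possible, and 0.55 after adjustment over the shares of all 11 sites, and it was singled out after its values were seen. The main start made up 91.8 ± 1.0% of Mcl1 tags in FLT3-ITD/D835Y cells and 88.7 ± 0.85% in FLT3-ITD cells (exact permutation p = 0.10, adjusted p = 0.15 over 6 shares and ratios). The starts 328 and 852 bases downstream did not pass, at 1.25 ± 0.41 and 2.56 ± 0.58 CPM in FLT3-ITD/D835Y cells, against 1.11 ± 0.29 and 1.92 ± 0.82 CPM in FLT3-ITD cells (limma adjusted p = 0.80 and 0.35).

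**Figure D4:**
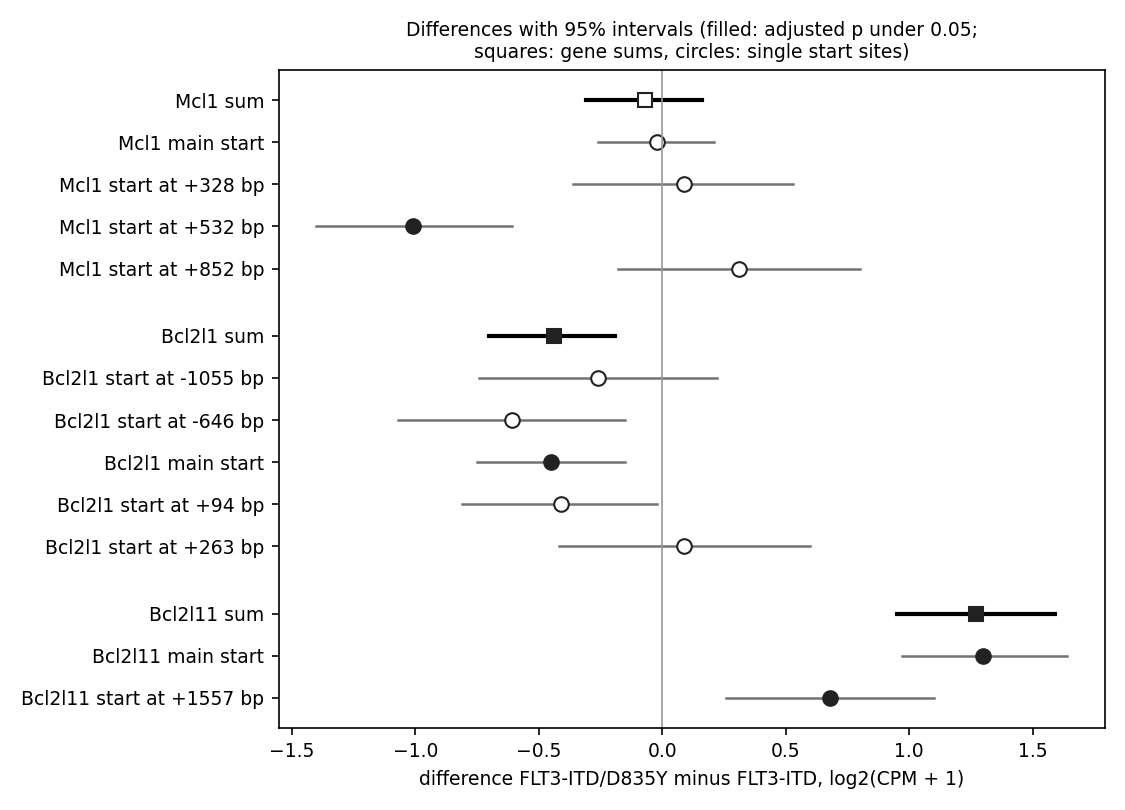
Log2(CPM + 1) difference, FLT3-ITD/D835Y minus FLT3-ITD, with 95% intervals for the 3 gene sums (squares) and the 11 tested start sites (circles), filled where limma's adjusted p was under 0.05. Bcl2l11 and both of its starts lie right of 0, and Bcl2l1 and its main start lie left. Within Mcl1 the start at +532 (-1.01) lies left of 0 and is filled, and the main start (-0.02) is open.

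Starts on the opposite strand of the same windows were faint. None of the 10 antisense peaks of Mcl1, 8 of Bcl2l1 and 2 of Bcl2l11 reached the minimum. Their summed levels were at most 0.839 CPM in FLT3-ITD/D835Y and 1.07 CPM in FLT3-ITD libraries for Mcl1. For Bcl2l1 they were at most 0.503 CPM in FLT3-ITD/D835Y and 0.439 CPM in FLT3-ITD libraries. For Bcl2l11 they were at most 0.168 CPM in FLT3-ITD/D835Y and 0.17 CPM in FLT3-ITD libraries.

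Neighbouring promoters were read from the same test. Within 500 kb on either side of the Bcl2l11 window, 4 promoters on both strands were tested, and 3 of them rose (limma, adjusted p under 0.05), with a median difference of 0.64. The neighbour on the downstream side, on the minus strand at 128255053 to 128255098, held 18.2, 18.9 and 21.3 CPM in the FLT3-ITD/D835Y libraries, against 9.95, 7.48 and 9.13 CPM in the FLT3-ITD libraries (log2 difference 1.06, limma adjusted p = 2.3e-04). On the upstream side, the minus-strand promoters at 127618203 to 127618241 and at 127657553 to 127657611 both rose by 0.64 (adjusted p = 5.8e-04 and 0.011), while that at 127614590 to 127614636 had 15.7 ± 2.3 CPM in FLT3-ITD/D835Y cells and 14.9 ± 1.9 CPM in FLT3-ITD cells. None of the 4 differed by as much as the Bcl2l11 sum. Within 2 Mb, a distance chosen after the values were seen, 11 of 54 promoters rose and 1 fell, the median was 0.25, and 1 exceeded Bcl2l11. On the whole of chromosome 2, 237 of 1491 promoters rose and 76 fell, with a median of 0.16. Of all 19162 tested promoters, 14.1% rose and 10.4% fell, with a median of 0.05. The part of the region in the rise of Bcl2l11 was not tested.

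Around Mcl1, 2 of 64 promoters within 500 kb rose and 22 fell, with a median difference of -0.26, while the main Mcl1 start had a difference of -0.02 and did not pass. Many of the 64 lay close together, as in the cluster from -441.354 to -440.701 kb from the main Mcl1 start. Their counts are therefore not counts of independent promoters. Within 2 Mb of Mcl1, 5 of 136 rose and 40 fell (median -0.24), and on chromosome 3, 109 of 910 rose and 161 fell (median -0.05). Over all tested promoters 14.1% rose and 10.4% fell. Around Bcl2l1, 3 of 22 rose and 3 fell, with a median of 0.06, and 3 of the 22 had a lower difference than the Bcl2l1 sum. Within 2 Mb of Bcl2l1, 8 of 67 rose and 3 fell (median 0.10).

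**Figure D5:**
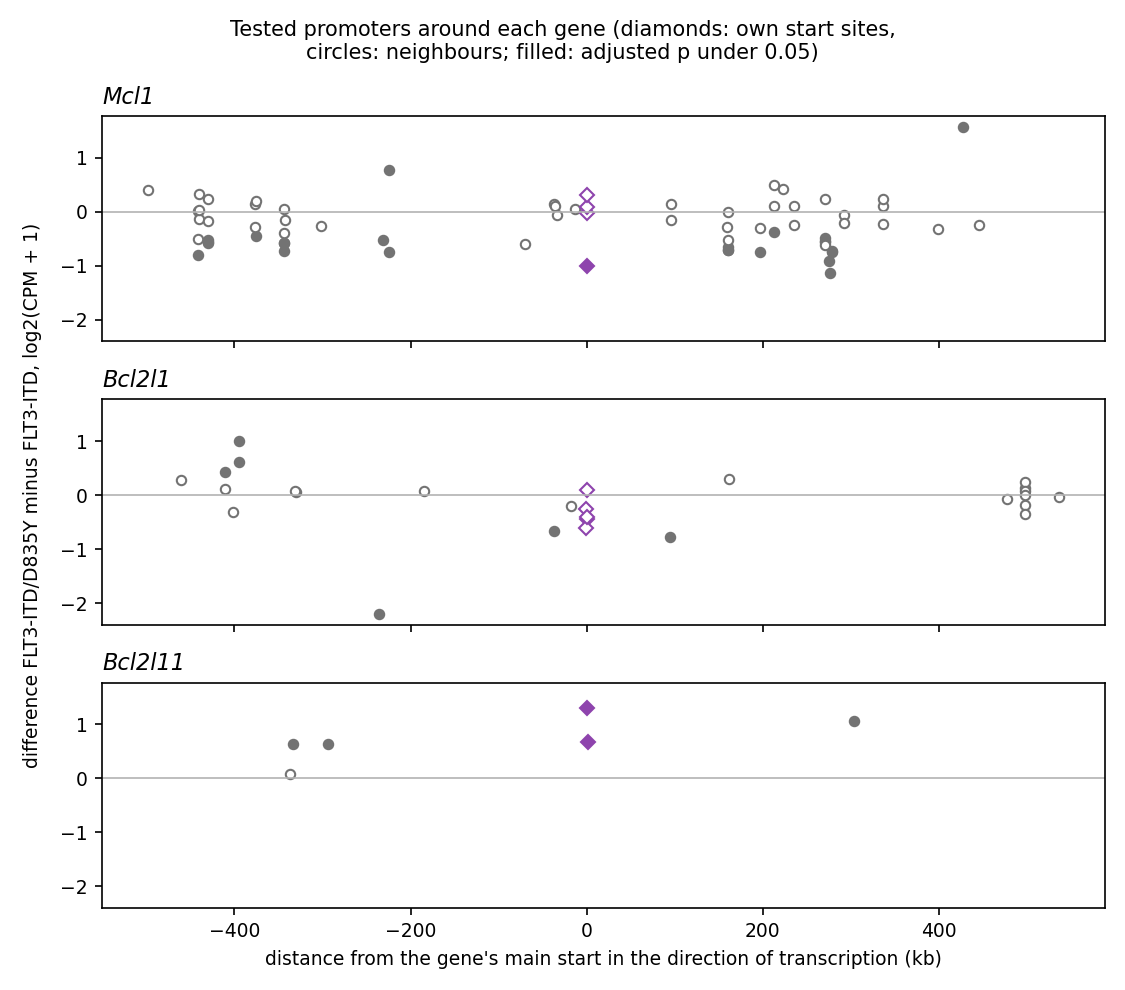
Log2(CPM + 1) difference, FLT3-ITD/D835Y minus FLT3-ITD, of every tested promoter within 500 kb of each gene's window, by distance in kb from the gene's main start in the direction of transcription (diamonds are the gene's own starts, circles its neighbours, filled where adjusted p was under 0.05). Of the 4 neighbours of Bcl2l11, 3 lie above 0 and are filled, and 22 of the 64 neighbours of Mcl1 are filled and below 0.

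Outside the 3 windows, 10246 promoters averaged 5 CPM or more, and those most like each gene over the 6 libraries were found by Pearson's r of log2(CPM + 1), a description only, since all points share libraries and depth. For Bcl2l11 they were both on the plus strand, on chromosome 12 from 83270446 to 83270471 (r = 0.9989) and on chromosome 2 from 32731656 to 32731761 (r = 0.9977). The first held 84.4, 96.6 and 73.6 CPM in the FLT3-ITD/D835Y libraries, against 37.4, 32.3 and 31.6 CPM in the FLT3-ITD libraries. Its order of libraries was that of Bcl2l11 within both groups. This is no separate result, since the promoter was chosen for its r over these libraries. For Bcl2l1 both lay on chromosome 6, on the minus strand at 124662056 to 124662089 (r = 0.9938) and on the plus strand at 116123646 to 116123653 (r = 0.9937). For Mcl1 they were plus-strand promoters of chromosome 14 at 76876720 to 76876737 (r = 0.9902) and of chromosome 10 at 11329054 to 11329067 (r = 0.9860).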

How the data were processed

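CAGE libraries of 6 Ba/F3 samples were used, 3 per group by sample title. The values deposited by the authors are CPM, tags scaled to 1000000 per library over a common list of 158966 peaks. Per the submitters' processing notes TopHat2 2.0.14, edgeR 3.24.3 and the builds hg19 and mm9 were involved, without saying what each did. How peaks were made, and whether positions start at 0 or 1, was not given in the sources used here. For all libraries 100% of values were a whole number (to within 0.01) of the lowest value above 0, so tags could be recovered, and 1 tag was worth 0.0715 to 0.17 CPM. Intervals and floors from tags cover counting error only.

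Promoters reaching 1 CPM in at least 3 libraries were tested with limma 3.58.1 (trend, robust; R 4.3.3) on log2(CPM + 1), fitting the group alone. Its p-values were two-sided and adjusted by Benjamini-Hochberg over the whole table at a threshold of 0.05. For gene sums, the sums took the place of the members' peaks in that table. Shares and ratios were compared by exact permutation. Alternatives were another pseudocount, other filters, TMM and RLE scaling, edgeR 4.0.16 and DESeq2 1.42.0 on recovered tags, each library left out, only the highest peak of a gene, and a replicate block. Every start site over the minimum is named. The members, windows and tests were chosen with earlier results of these data known. The planned lists of other BCL-2 family genes and of cell type markers were not used, since the gene table follows GRCm38.p6 and coordinates were not converted.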

Additional observations from a re-analysis of the deposited data

How the results depend on the processing

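Of 45 refits of the 3 gene sums, 43 kept direction and side of the threshold, and the 2 that did not were the 2 left-out libraries of Bcl2l1 given above. Left-out libraries gave -0.48 to -0.37 for Bcl2l1 and 1.16 to 1.37 for Bcl2l11, whose adjusted p was at most 0.0012 in any alternative. Of 147 refits of single sites, 126 kept both. Reversals were seen only with a library left out and at sites with an adjusted p of at least 0.58: the main Mcl1 start (-0.10 to 0.02; 0.01 without FLT3-ITD replicate 2), the Mcl1 start at 95463021 (-0.03 to 0.24) and the Bcl2l1 start at 152656146 (-0.19 to 0.26). The difference in share of the main start then ranged from -2.26 to 0.796 percentage points for Bcl2l1 and from -0.173 to 4.71 for Bcl2l11.

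Sites called numbered 4 (2 higher, 2 lower), and with libraries left out 2 to 4 (1 to 2 higher, 1 to 3 lower). With TMM or RLE scaling they numbered 5 (2 higher, 3 lower). With no minimum level they again numbered 4, with the main Bcl2l1 start lost and the start at 152656979 gained. Where the minimum was a mean of 5 CPM they numbered 2 (1 higher, 1 lower), since fewer were tested. With edgeR 4 were lower, and with DESeq2 1 was higher; the cause was not tested. All called promoters numbered 4680 (2695 higher, 1985 lower), 2916 under that minimum (1657 and 1259), 1702 higher and 1836 lower with DESeq2, 2451 and 2456 with TMM scaling, 2434 and 2470 with RLE scaling, 2363 and 2346 with edgeR, and 3076 to 5209 with a library left out (1807 to 2745 higher, 1215 to 2464 lower); the lowest total was without FLT3-ITD replicate 2. The replicate block gave 4109 and, for the gene sums, 1.27 (Bcl2l11), -0.44 (Bcl2l1) and -0.07 (Mcl1), with no call changed. Same-numbered libraries deviated together at r of -0.01, 0.02 and 0.19 for replicates 1, 2 and 3, so they were not taken as pairs; FLT3-ITD/D835Y replicates 1 and 2 correlated best with FLT3-ITD replicates 3 and 1. TMM scaling moved the median of all promoters to 0.01. Depth limits sites of a few tags per library.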
